A study of Mus musculus with 6 samples.

Results

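The Krüppel-like factors described here were 10 genes of the Klf family, Klf2, Klf3, Klf4, Klf5, Klf6, Klf7, Klf9, Klf10, Klf12 and Klf13, measured by RNA-seq in epiblast-like cells (EpiLCs) with and without the transcription factor Oct6 (official symbol Pou3f1). They were taken by gene symbol from the 55416 genes of the counts table, and all 10 were among the 15746 genes with enough counts to be tested. The wild-type (WT) cells were 46C mouse embryonic stem cells (mESCs), a line with GFP under the control of Sox1, a neural gene. The knockout (KO) cells were a clone of that line, made with CRISPR/Cas9, that carries a homozygous insertion near the start of the Oct6 coding sequence, so that the loss of Oct6 and other properties of this clone cannot be told apart. Both were cultured for 48 h on fibronectin in the defined medium N2B27 with 1% KSR (a serum replacement), bFGF at 12 ng/ml and Activin A at 20 ng/ml, as the sample labels give it, while the series' design text gives the growth factors in µg/ml. There were 3 WT and 3 KO libraries, described as paired biological replicates, and lists of 3 values below follow replicates 1, 2 and 3.

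Krüppel-like factors are transcription factors with zinc fingers at the C-terminal end that bind GC-rich and CACCC sequences, and their divergent N-terminal parts recruit co-activators or co-repressors. In mESCs, Klf2, Klf4 and Klf5 act together in the network that maintains naïve pluripotency, and their transcripts normally decline as cells leave the naïve state. Klf3 and Klf12 recruit the CtBP co-repressors, whereas Klf9, Klf10 and Klf13 recruit the Sin3 complex. Klf6 and Klf7 form a branch of activators.

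Library totals ran from 10995505 to 14680930 counts, and the 10 genes had between 32 and 2654 counts in a library. The summed level of 8 EpiLC markers, most of it from Dnmt3b and Pou5f1, ran from 3452 to 3857 CPM (the count of a gene relative to the normalized library size, as edgeR gives it) in WT EpiLCs and from 3425 to 3594 CPM in KO EpiLCs, and 3 of them were called higher in KO EpiLCs, Otx2 (log2 fold change 0.92), Fgf5 (0.65) and Sox2 (0.42, a call that ended without WT replicate 1 or KO replicate 3). The Pou3f1 transcript had 142 ± 19.4 CPM (SD, n = 3) in WT and 132 ± 7.59 CPM in KO EpiLCs, and its counts do not check an insertion that leaves the transcript in place. Of 7 primitive endoderm markers, 4 were tested and 2 were called higher in KO EpiLCs (24.3% of all genes tested were called in either direction), Gata6 and Pdgfra, of which Gata6 lost its call without KO replicate 3 (edgeR adjusted p = 0.113) and Pdgfra without that library, KO replicate 1, WT replicate 2 or WT replicate 3 (up to 0.332). Pdgfra also lost its call in DESeq2 and with library totals alone. The summed level of the 7 markers was 6.39 to 8.43 CPM across the WT libraries and 14.4, 6.56 and 18.6 CPM across the KO libraries, with Sox7 at 0 in 3 of the 6 libraries. The summed level of trophectoderm markers was 168 to 185 CPM in WT and 118, 106 and 129 CPM across the KO libraries, with Krt8 (−1.04) and Krt18 (−0.29) called among 3 tested and Cdx2, Elf5, Gata3 and Hand1 at 0 to 7 counts per library. Primitive streak markers summed to 6.29 to 6.57 CPM in WT and to 11.2, 9.03 and 12.3 CPM across the KO libraries, with the 1 gene tested, Eomes (0.87), called and the other 5 at 0 to 6 counts per library. Neural ectoderm markers summed to 35.4 to 44 CPM in WT and to 30.9, 28.6 and 31.6 CPM across the KO libraries, and all 3 tested were called, Sox1 (−1.78), Tubb3 (−0.61) and Neurod1 (0.95). Endothelium and blood markers summed to 48.6 to 51.4 CPM in WT and 51.1 to 66.5 CPM in KO libraries. Most of this sum came from Pecam1, which was not called (0.14). Of the 3 tested, Kdr (2.64, with means of 0.398 CPM in WT and 2.58 CPM in KO EpiLCs) and Tal1 were called higher. Fibroblast markers summed to 10.4 to 19.8 CPM in WT and 6.84 to 12.3 CPM in KO libraries, and Thy1 (−1.22) was called lower. Among these, leaving out a library ended the calls of Krt18 (WT replicate 2, KO replicate 1 or KO replicate 2) and Tal1 (WT replicate 2 or KO replicate 2). The part of such cells in the values of the Klf genes was not tested.

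The sequences upstream of the RefSeq starts of Klf2, Klf6 and Klf7 are shown because these are the members called between WT and KO EpiLCs, Klf7 less firmly. They come from the RefSeq promoter table (GRCm38.p6), were located in GRCm39 by an exact match, and are read 5′ to 3′ on the strand of the gene. The Klf2 stretch is chr8:73072656-73072725 on the plus strand, that of Klf6 is chr13:5911238-5911480 on the plus strand, and that of Klf7 is chr1:64160713-64160798 on the minus strand. Each begins 250 bases before the RefSeq start and runs for 70, 243 and 86 bases, up to the next GENCODE exon. The Klf7 stretch lies inside the GENCODE gene, whose start is 960 bases upstream of the RefSeq start. Capitals mark GC boxes (GGGCGG) and CCAAT boxes on either strand.
Klf2: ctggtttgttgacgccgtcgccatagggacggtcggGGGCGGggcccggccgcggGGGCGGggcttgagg
Klf6: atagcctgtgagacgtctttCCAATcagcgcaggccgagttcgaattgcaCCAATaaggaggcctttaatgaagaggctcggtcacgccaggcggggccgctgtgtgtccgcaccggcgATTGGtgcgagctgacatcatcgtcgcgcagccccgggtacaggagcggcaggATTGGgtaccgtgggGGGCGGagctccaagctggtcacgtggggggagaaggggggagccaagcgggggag
Klf7: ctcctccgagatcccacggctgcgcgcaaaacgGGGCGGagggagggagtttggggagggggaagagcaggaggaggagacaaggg

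Positions are those of the first base of a match, counted back from the RefSeq start. Klf2 had GC boxes at −214 and −195. Klf6 had CCAAT boxes at −230, −200, −131 and −78 and a GC box at −63, and Klf7 had a GC box at −217. In the rest of the 250-base windows, which lies in GENCODE exons, Klf2 had the only match among the members to the MEF2 consensus, at −118. There, CACCC boxes (CCACCC, here on the opposite strand) were found in Klf2 at −19 and in Klf7 at −138, −131 and −111. The short stretches round the MEF2 match of Klf2 (chr8:73072780-73072805) and the first CACCC boxes of Klf7 (chr1:64160666-64160694) show these matches in capitals.
Klf2: taccgcggCTAAATTTAGgctgagcc
Klf7: cgaggatgGGGTGGgGGGTGGggagggaa

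Promoters of 8 of the 10 members were in the table, which holds 32851 promoters, and those of Klf5 and Klf10 were not matched. Within the 250 bases before the start, on either strand, a GC box was found in 6 of the 8 and in 32.7% of all promoters, and a CACCC box in 4 (Klf2, Klf3, Klf7 and Klf13) and in 28.1% of all. Matches of these boxes can share their outer bases. The windows with a GC box had 59.2 to 78.4% of G and C, and those of Klf9 and Klf12, without one, 59.6% and 48%. The median over all promoters was 52.4%, and the shares were not adjusted for base composition. CCAAT boxes were found in 3 members (33.8% of all promoters), the E-box CACGTG in Klf4 and Klf6 (6.02%) and the MEF2 consensus in Klf2 (2.92%). The octamer ATGCAAAT, the sequence that POU factors such as Oct6 recognise, and the SRF CArG box were found in none of the 8 windows and in 1.6% and 1.47% of all promoters. An absent match says only that these letters are not in the window. The RefSeq start used for Klf12 lies 135196 bases downstream of the start of its GENCODE gene, and its window held none of these motifs.

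Among the 10 Klf genes, Klf2 and Klf7 were higher and Klf6 was lower in KO EpiLCs, and the call of Klf7 ended under several alternatives. Differences were tested by quasi-likelihood in edgeR, with p-values adjusted over all genes tested by the Benjamini-Hochberg method, with a call at an adjusted p below 0.1. By this rule 3 of 10 members (30%) were called, against 24.3% of all genes tested, a share near that background. Called higher were 2 members (11.8% of all genes) and called lower 1 member (12.5% of all genes). Only Klf2 also passed the second threshold, a log2 fold change of 1 or more in size (6.21% of all genes). The levels of the WT and KO libraries did not overlap for 4 members, Klf2, Klf6, Klf7 and Klf12 (33.7% of all genes). The median log2 fold change was 0.08 over the members and 0.00 over all genes tested, and the median absolute value was 0.32 against 0.23. All values are from whole-culture RNA, in which fewer cells with a transcript and less transcript per cell cannot be told apart.

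**Figure D1:**
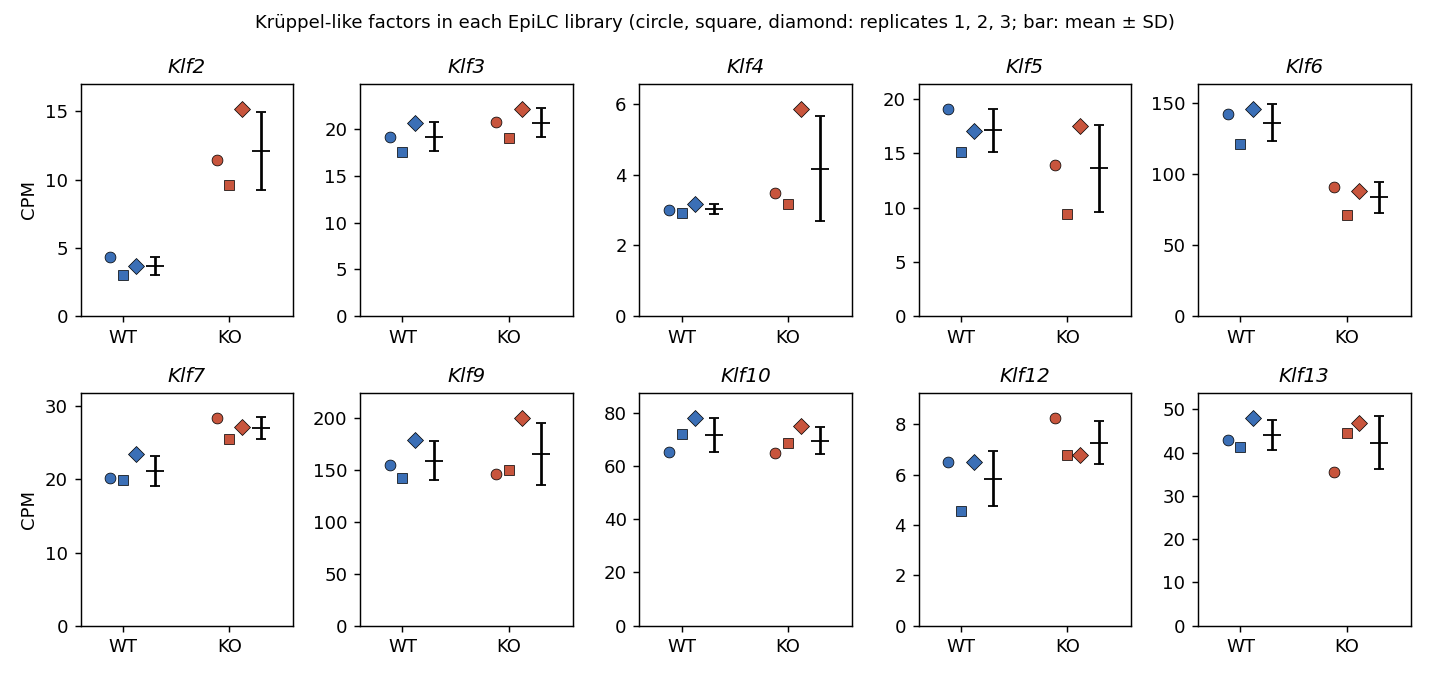
Level of each Klf gene in CPM (vertical axes, each starting at 0 and with its own scale) in the 3 WT and 3 KO EpiLC libraries, with the symbol giving the replicate and the bar the mean ± SD. The KO libraries of Klf2 lie between 9.64 and 15.2 CPM, above all WT libraries, and those of Klf6 between 71.4 and 90.8 CPM, below all WT libraries.

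Klf2 showed the largest log2 fold change of the 10 genes. It is known for keeping endothelium and T cells quiescent, besides its part in naïve pluripotency. Klf2 (ENSMUSG00000055148.8, chr8:73072726-73075502, plus strand of GRCm39) had 4.33, 3.01 and 3.65 CPM across the WT libraries and 11.4, 9.64 and 15.2 CPM across the KO libraries. Every KO library was thus well above every WT library. The means of 3.66 ± 0.659 and 12.1 ± 2.83 CPM (SD, n = 3) gave a log2 fold change of 1.71 (standard error, SE, 0.22, 95% interval 1.25 to 2.17, adjusted p = 2.5e-05 in edgeR), or 3.28-fold (2.38 to 4.51). Between libraries with the same replicate number, the log2 differences were 1.37, 1.63 and 2.01. Over the 12 other fits, including those that leave out a library, the log2 fold change ran from 1.51 to 1.85 and the adjusted p from 8e-13 to 4.6e-04. The counts behind these values were low, 33 to 58 in WT and 125 to 202 in KO libraries.

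The Klf2 gene lies wholly within an intron of Eps15l1, a gene for an endocytic adaptor on the opposite strand, and shares no exon base with it. Eps15l1 had 49.2 ± 5.28 CPM in WT and 45 ± 4.27 CPM in KO EpiLCs (SD, n = 3), a log2 fold change of −0.13 (SE 0.12, edgeR adjusted p = 0.5). The host gene was thus not called, and whether its reads entered the counts of Klf2 was not tested. Whether the authors' counting used the strand is not given in the sources used here.

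Klf4, which serves as a reprogramming factor, and Klf5, which maintains the self-renewal of mESCs, were not called. Klf4 (ENSMUSG00000003032.9, chr4:55527139-55532528, minus strand) had 2.99, 2.92 and 3.18 CPM across the WT libraries and 3.48, 3.16 and 5.87 CPM across the KO libraries. KO replicate 3 stood above the other 5 libraries, which lay close together. The log2 fold change was 0.46 (SE 0.28, 95% interval −0.13 to 1.05, edgeR adjusted p = 0.295) and 0.13 without KO replicate 3. The libraries had 32 to 78 counts of Klf4.

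Klf5 (ENSMUSG00000005148.9, chr14:99536086-99552473, plus strand) had 19.1, 15.1 and 17 CPM across the WT libraries and 13.9, 9.41 and 17.5 CPM across the KO libraries. KO replicates 1 and 2 were below all WT libraries and KO replicate 3 lay among them. The means were 17.1 ± 1.98 and 13.6 ± 4.03 CPM (SD, n = 3), a log2 fold change of −0.33 (SE 0.19, 95% interval −0.73 to 0.06, edgeR adjusted p = 0.255). With the replicate number as a block, Klf5 was called lower in KO EpiLCs, at −0.35 (SE 0.15, adjusted p = 0.0952). The same happened without KO replicate 3 (−0.56, SE 0.20, adjusted p = 0.0727), whereas the value was −0.13 without KO replicate 2. The levels of Klf2, Klf4 and Klf5 had the same order in the KO libraries, highest in replicate 3 and lowest in replicate 2. Klf3 had this order as well (20.8, 19.1 and 22.2 CPM), and the share of all genes that had it was not counted. The summed primitive endoderm, trophectoderm, primitive streak and neural ectoderm markers given above had this order too. Most of the trophectoderm sum came from Krt8 and Krt18, and most of the neural ectoderm sum from Tubb3. Sox1 was instead highest in KO replicate 2 (0.405, 2.24 and 0.527 CPM in KO replicates 1 to 3). The order was not that of the summed EpiLC markers, at 3594, 3560 and 3425 CPM in KO replicates 1 to 3. Nor was it that of the fibroblast markers (12.3, 7.25 and 6.84 CPM) or the endothelium and blood markers (51.1, 56 and 66.5 CPM). The part of such cells in the values of Klf2, Klf4 and Klf5 was not tested.

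**Figure D2:**
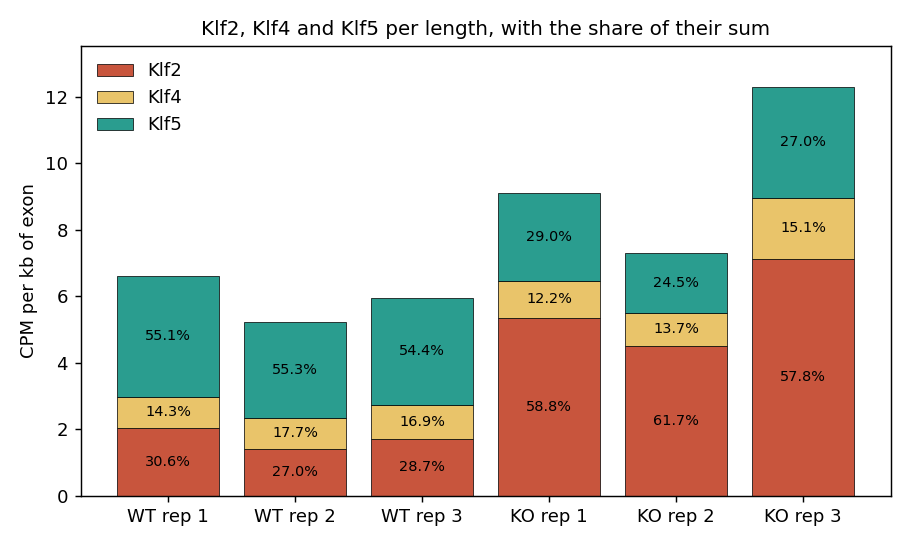
Summed level of Klf2, Klf4 and Klf5 in each library, in CPM per kb of exon, stacked by gene, with the share of each gene written in its segment. The Klf2 segment takes 27 to 30.6% of the bars in WT EpiLCs and 57.8 to 61.7% in KO EpiLCs.

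Levels of different genes were compared after division by length, as CPM per kb of exon, and described without a test. On this scale Klf5 was the leading transcript of the trio in WT EpiLCs and Klf2 in KO EpiLCs. Klf2 made up 30.6%, 27% and 28.7% of the summed level in WT replicates 1 to 3 and 58.8%, 61.7% and 57.8% in KO replicates 1 to 3. Klf5 went from 54.9% ± 0.485 to 26.9% ± 2.26 of the sum (SD, n = 3), and Klf4 from 16.3% ± 1.79 to 13.7% ± 1.49. The sum itself was 5.93 ± 0.696 CPM per kb in WT and 9.57 ± 2.53 CPM per kb in KO EpiLCs. The Klf2 share was thus stable among the KO libraries although their sums ran from 7.31 to 12.3 CPM per kb. The ratio of Klf2 to Klf5 in CPM, whose difference between groups does not depend on length, was 0.227, 0.199 and 0.215 in WT and 0.825, 1.02 and 0.871 in KO replicates 1 to 3. The ratio of Klf2 to Klf4 was 1.45, 1.03 and 1.15 in WT and 3.28, 3.05 and 2.59 in KO libraries. For each of these ratios, and for that of Klf2 to Klf6, chosen after their values were seen, an exact two-sided permutation test gave p = 0.1 (0.1 adjusted over the 3 ratios), the smallest that 3 against 3 libraries allow. This test did not keep the pairs of replicates. For ratios chosen by their values it decides nothing, and no conclusion was drawn from it.

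Klf6, an activator also studied as a growth suppressor, was lower in KO EpiLCs. Klf6 (ENSMUSG00000000078.8, chr13:5911481-5920393, plus strand) had 142, 121 and 146 CPM across the WT libraries and 90.8, 71.4 and 88.4 CPM across the KO libraries. All KO libraries were below all WT libraries, with similar spread in both groups. The means of 136 ± 13.1 and 83.5 ± 10.6 CPM (SD, n = 3) gave a log2 fold change of −0.71 (SE 0.11, 95% interval −0.94 to −0.47, edgeR adjusted p = 1.6e-04), a level 1.63 times as high in WT as in KO EpiLCs. The pairs of libraries with the same number differed by −0.64, −0.76 and −0.72 on the log2 scale. Over the 12 other fits the value ran from −0.79 to −0.60 and the adjusted p from 4.5e-09 to 0.00166.

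Klf7, the relative of Klf6 that is best known from developing neurons, was slightly higher in KO EpiLCs. Klf7 (ENSMUSG00000025959.14, chr1:64068606-64161508, minus strand) had 20.2, 19.9 and 23.5 CPM across the WT libraries and 28.4, 25.5 and 27.2 CPM across the KO libraries. The groups did not overlap, but the lowest KO library and the highest WT library were close. The log2 fold change was 0.35 (SE 0.13, 95% interval 0.08 to 0.62, edgeR adjusted p = 0.0687), or 1.27-fold. This call did not survive several changes. It ended without WT replicate 1 (0.31, adjusted p = 0.17), WT replicate 2 (0.30, adjusted p = 0.202), KO replicate 1 (0.31, adjusted p = 0.2) or KO replicate 3 (0.34, adjusted p = 0.142) in edgeR, without the filter on low counts (adjusted p = 0.133), and in DESeq2 (adjusted p = 0.1).

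**Figure D3:**
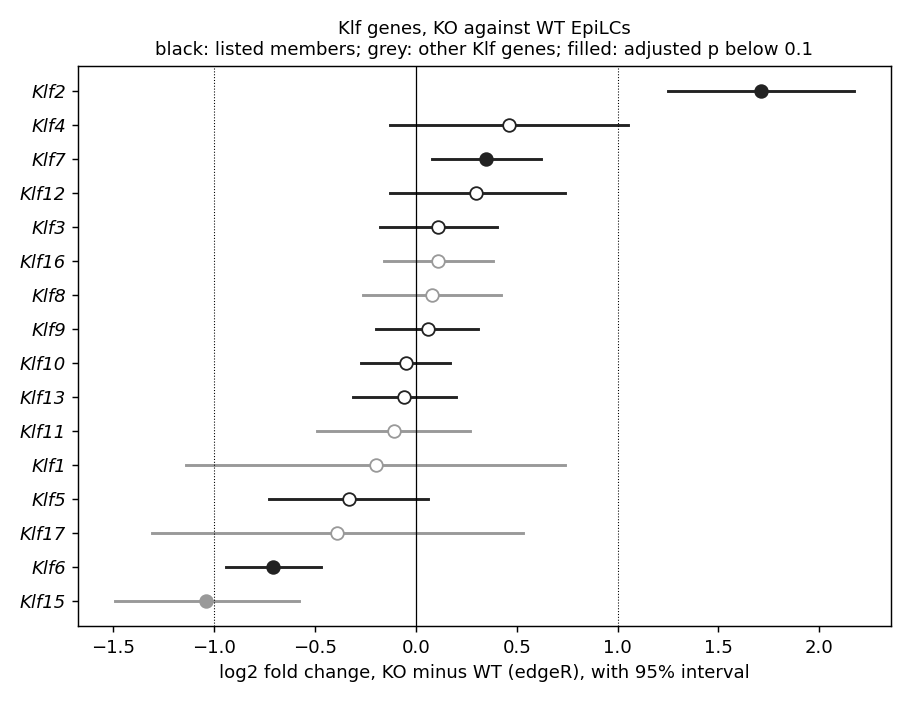
Log2 fold change of each tested Klf gene, KO minus WT EpiLCs, with its 95% interval from edgeR (horizontal axis), members in black and other Klf genes in grey, filled where the adjusted p was below 0.1. Klf2 at 1.71 lies apart from the other members, which run from −0.71 for Klf6 to 0.46 for Klf4, and Klf15 at −1.04 is the called gene among the others.

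The repressors that bind CtBP were not called. Klf3 (ENSMUSG00000029178.15, chr5:64959875-64990261, plus strand) had 19.2, 17.6 and 20.7 CPM across the WT libraries and 20.8, 19.1 and 22.2 CPM across the KO libraries, so that the groups overlapped. Its log2 fold change was 0.11 (SE 0.14, 95% interval −0.18 to 0.40, edgeR adjusted p = 0.648). Klf3 shares 643 exon bases with the antisense transcript Gm20033, which had 6 to 17 counts per library. Klf12 (ENSMUSG00000072294.6, chr14:100103674-100522428, minus strand) had 6.49, 4.56 and 6.49 CPM across the WT libraries and 8.26, 6.79 and 6.77 CPM across the KO libraries. Although these groups did not overlap, the log2 fold change of 0.30 had an SE of 0.21, a 95% interval of −0.13 to 0.74 and an adjusted p of 0.363 in the edgeR test. The libraries had 50 to 102 counts of Klf12.

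The repressors that bind Sin3 had higher levels per length than those that bind CtBP and were not called either. Klf9, which is induced by glucocorticoid and thyroid hormone in many tissues (ENSMUSG00000033863.3, chr19:23118187-23148497, plus strand), had 155, 142 and 179 CPM across the WT libraries and 146, 150 and 200 CPM across the KO libraries. Replicate 3 was the highest library of both groups. Its log2 fold change of 0.06 (95% interval −0.20 to 0.31) changed sign without WT replicate 2 (−0.02) and without KO replicate 3 (−0.10). Klf10, an early gene of the response to TGFβ (ENSMUSG00000037465.11, chr15:38291703-38300959, minus strand), had 65.4, 71.8 and 78 CPM across the WT libraries and 64.7, 68.7 and 74.8 CPM across the KO libraries, a log2 fold change of −0.05 (95% interval −0.27 to 0.17). Klf13, first described as an activator of a chemokine gene in T cells (ENSMUSG00000052040.11, chr7:63536099-63588663, minus strand), had 42.8, 41.4 and 48 CPM across the WT libraries and 35.5, 44.6 and 46.9 CPM across the KO libraries, a log2 fold change of −0.06 (95% interval −0.31 to 0.20). The WT and KO libraries overlapped for each of the 3 genes, the edgeR adjusted p-values lay between 0.799 and 0.81, and the 95% intervals leave room for differences up to 0.31 in size on the log2 scale.

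**Figure D4:**
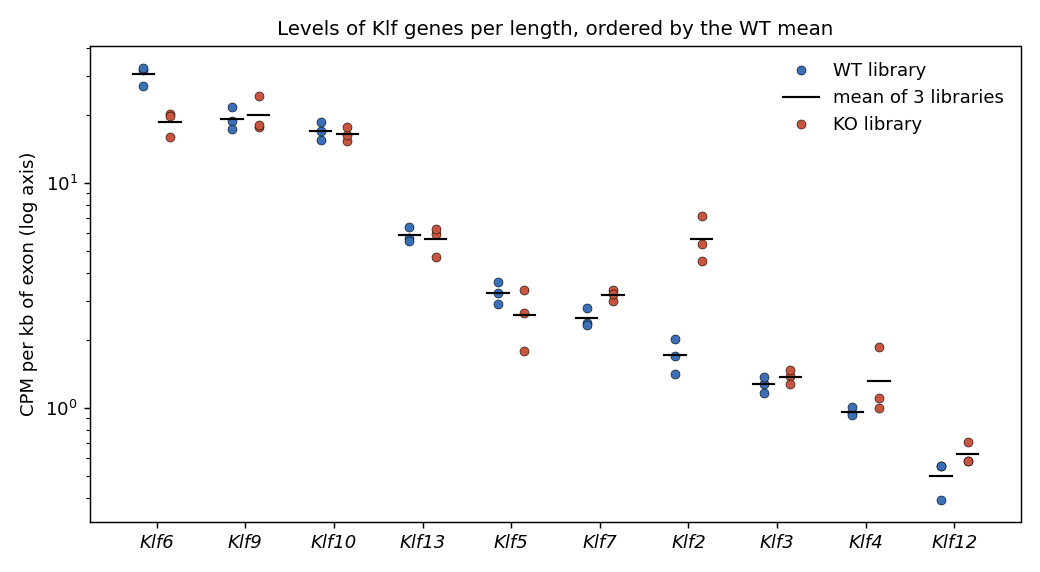
Level of the 10 Klf genes in CPM per kb of exon (vertical log axis), ordered by the WT mean, with a point for each library and a line for the mean of 3 libraries. Klf6 leads at 30.5 in WT EpiLCs, and Klf2 stands seventh at 1.72 in WT and at the level of Klf13, 5.66, in KO EpiLCs.

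The order of the levels per length was led by Klf6, Klf9 and Klf10 in both groups. In WT EpiLCs the means were 30.5 ± 2.94 CPM per kb of exon for Klf6, 19.3 ± 2.26 for Klf9, 17.1 ± 1.5 for Klf10 and 5.85 ± 0.456 for Klf13 (SD, n = 3). Klf5 (3.26), Klf7 (2.5), Klf2 (1.72), Klf3 (1.28), Klf4 (0.962) and Klf12 (0.5) followed. Among neighbours in this order, the libraries overlapped for Klf9 and Klf10 alone. In KO EpiLCs, Klf9 (20.1 ± 3.62 CPM per kb of exon), Klf6 (18.7 ± 2.36) and Klf10 (16.5 ± 1.2) were neighbours whose libraries overlapped. Klf2 (5.66 ± 1.33) overlapped with Klf13 (5.62 ± 0.803), Klf7 (3.19) with Klf5 (2.59), and Klf3 (1.38) with Klf4 (1.32), and Klf12 was the lowest at 0.622. The places depend on the length used, since many exons of a gene may not be in the transcript expressed. With the length of the canonical transcript, an alternative chosen after seeing the data, Klf3 went from 1.28 to 3.64 CPM per kb in WT EpiLCs, above Klf7 and Klf2, and Klf10 (23.5) stood above Klf9 (20.1).

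Of the 7 other Klf genes in the list, 6 were tested and 1 was called (24.3% of all genes tested), Klf15, a regulator of glucose and amino acid metabolism. Klf15 (ENSMUSG00000030087.12, chromosome 6) had 10.9, 11.1 and 10.6 CPM across the WT libraries and 7.05, 5.32 and 3.54 CPM across the KO libraries. All KO libraries were below the WT libraries, which lay close together. The log2 fold change was −1.04 (SE 0.22, edgeR adjusted p = 0.00221), and it stayed called over the 12 other fits at −1.30 to −0.81. The 773 tested genes of chromosome 6 had a median log2 fold change of −0.40, and the medians of the chromosomes that carry the 10 members lay between −0.04 and 0.06. Klf1 (−0.20), Klf8 (0.08), Klf11 (−0.11), Klf16 (0.11) and Klf17 (−0.39) were not called. Klf14 had 1 to 7 counts per library and was not tested, and Klf1 shares 814 exon bases with Gcdh on the opposite strand.

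The genes whose profile over the 6 libraries was nearest to that of Klf2, among 13227 genes, were Gbp9, Abcb1a and Sec14l5. Nearness was the root mean square difference of log2 CPM after each gene was centred on its mean, and it was 0.0902, 0.15 and 0.159 for these 3 genes. Gbp9, of the guanylate-binding proteins that interferon induces, had 3.28, 2.46 and 2.98 CPM across the WT libraries and 10.5, 8.33 and 11.7 CPM across the KO libraries. Abcb1a, a drug efflux pump, had 19.6, 14 and 18.6 CPM across the WT libraries and 49.6, 42.1 and 53.3 CPM in KO libraries. Like Klf2, these genes had their lowest WT and their lowest KO level in replicate 2. They were picked for a profile like that of Klf2, so this likeness is no separate result.

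The counts for lists of related genes below stand against the 24.3% of all genes called and the median of 0.00 over all genes, and no test was made of a list. Among the Sp factors, which share the DNA-binding domain of the Klf family, 6 of 9 genes were tested and 1 was higher in KO EpiLCs, with a median log2 fold change of 0.25. This was Sp1, a general activator, at 193 ± 17.3 CPM in WT and 243 ± 10.6 CPM in KO EpiLCs (log2 fold change 0.33, edgeR adjusted p = 0.0218). Its call ended without WT replicate 1 (adjusted p = 0.107), and with the replicate block Sp4 was called as well, which made 2.

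Of 13 co-repressors and co-activators that Klf proteins bind, 2 were higher and 3 lower in KO EpiLCs, with a median of 0.01. Sin3b, a scaffold of the Sin3 complex, fell from 218 ± 21.4 to 161 ± 4.05 CPM (log2 fold change −0.44, edgeR adjusted p = 0.00375), and this was the call that held with each library left out. Sap30 (0.39), a further Sin3 subunit, Crebbp (0.35), a histone acetyltransferase gene on chromosome 16, Ctbp1 (−0.29) and Fhl3 (−0.51), a LIM-domain cofactor, were called less firmly. Each lost its call without KO replicate 3, Sap30, Ctbp1 and Fhl3 also without WT replicate 1, Crebbp and Fhl3 without WT replicate 2, Crebbp without WT replicate 3, Crebbp and Ctbp1 without KO replicate 1, and Sap30 and Fhl3 without KO replicate 2, so that 1 gene was called without KO replicate 3 and 2 without WT replicate 1. The tested genes of chromosome 16 had a median log2 fold change of 0.55.

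Among 7 ubiquitin ligases that act on Klf proteins, 2 were higher and none lower in KO EpiLCs, with a median log2 fold change of 0.08. Fbxw7, the substrate receptor through which Klf2 and Klf5 are degraded, rose from 75.4 ± 5.7 to 103 ± 6.98 CPM (log2 fold change 0.45, edgeR adjusted p = 0.00364). Smurf1 had 35.8 ± 0.83 and 43.8 ± 4.42 CPM (0.29, edgeR adjusted p = 0.0832), and its call ended without any 1 of the 3 WT libraries, KO replicate 2 or KO replicate 3. In edgeR it also ended without the filter on low counts (adjusted p = 0.165) and with library totals alone (0.124), and it ended in DESeq2 (adjusted p = 0.113).

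The MEK5-ERK5-MEF2 route, which induces Klf2 in endothelium under flow, had 7 of 8 genes tested, 1 of them lower and none higher in KO EpiLCs, with a median log2 fold change of −0.22. Mef2b, whose protein binds the MEF2 consensus, fell from 5.22 ± 1.9 to 2.13 ± 0.729 CPM (log2 fold change −1.27, edgeR adjusted p = 0.00879). With the replicate block Mef2d was called as well, which made 2 genes. Mef2c was not tested at 1 to 17 counts per library.

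In the LIF and STAT3 route, which sustains Klf4 in naïve mESCs, 3 of 10 genes were higher and 2 lower in KO EpiLCs, with a median log2 fold change of 0.11. Both receptor subunits rose, Lifr from 48.1 ± 7.23 to 95.1 ± 2.58 CPM (log2 fold change 0.98, edgeR adjusted p = 7.6e-06) and Il6st from 29.3 ± 5.07 to 42.6 ± 4.16 CPM (0.54, adjusted p = 0.00718). Gbx2, a transcription factor downstream of STAT3, rose by 1.09 (adjusted p = 0.00197). Stat3 itself had 42.3 ± 1.48 CPM in WT and 32.6 ± 4.55 CPM in KO EpiLCs (−0.38, adjusted p = 0.0354), a call that ended without KO replicate 2 (adjusted p = 0.194). The kinase gene Pim3 had −0.39 and lost its call without KO replicate 1 (adjusted p = 0.108). The STAT3 target Socs3, at 3.59 ± 0.146 and 3.88 ± 1.32 CPM, was not called (0.12, edgeR adjusted p = 0.823).

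Of 11 transcription factors that act with Klf2, Klf4 and Klf5 in naïve cells, 6 were higher and 1 lower in KO EpiLCs, with a median log2 fold change of 0.42. Several of them were already known to be higher in these libraries when the list was written. The largest values were those of Prdm14 (2.62, SE 0.51), Nr5a2 (2.27, SE 0.23) and Esrrb (1.39, SE 0.15), of which Prdm14 had 1 to 12 counts in WT libraries. Tcf7l1, a repressor of the naïve network on chromosome 6, had a log2 fold change of −0.52 (edgeR adjusted p = 0.0923). Its call ended with any 1 library left out, without the filter on low counts and in DESeq2. Without WT replicate 1 or without KO replicate 3, 5 genes were called, all higher in KO EpiLCs.

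Genes described as Klf targets in other tissues were mixed, 10 of 16 being tested, with 2 higher, 3 lower and a median log2 fold change of −0.16. Cdkn1a, the cell cycle inhibitor gene that Klf4 and Klf6 activate, fell from 22.8 ± 3.65 to 11.4 ± 2.18 CPM (95% interval of the log2 fold change −1.35 to −0.64, edgeR adjusted p = 3.2e-04). Cdkn1b on chromosome 6 fell by 0.36 on the log2 scale (adjusted p = 0.0224), close to the median of its chromosome. Tgfbr1, a TGFβ receptor gene, rose from 60.5 ± 10.4 to 85.6 ± 11.7 CPM (0.50, adjusted p = 0.00911). Pdgfa had 0.45 and lost its call without any library other than KO replicate 2, without the filter on low counts, in DESeq2, and with library totals alone. The chemokine gene Ccl5 had no count in any library.

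Immediate-early genes, to which Klf2, Klf4, Klf6 and Klf10 belong in many cell types, included 13 tested genes, of which 7 were lower and 1 higher in KO EpiLCs, with a median log2 fold change of −0.43. The lower genes numbered 5 without WT replicate 1, without KO replicate 2 and at an adjusted p below 0.05. The list held 18 genes, and their summed level was 387 to 453 CPM in WT and 275 to 322 CPM in KO libraries. Atf3, a stress-induced factor, fell from 7.23 ± 0.753 to 2.8 ± 1.03 CPM (log2 fold change −1.37, edgeR adjusted p = 0.00102), and Junb, a partner in AP-1, from 27.8 ± 1.82 to 11.3 ± 0.8 CPM (−1.30, adjusted p = 3.8e-06). Ier3 had −0.76 and lost its call in DESeq2 and without WT replicate 2, KO replicate 1 or KO replicate 2 (adjusted p up to 0.44). Dusp1 (−0.37) lost its call in DESeq2 and without any library other than KO replicate 3, and Btg2 (−0.42) without WT replicate 1, KO replicate 2 or KO replicate 3. In the opposite direction, Ier5 rose from 13.2 ± 0.482 to 24.1 ± 0.918 CPM (0.86, adjusted p = 1.6e-04). Among the Klf genes, Klf6 had the sign of the list's median, Klf2 that of Ier5, and Klf4 and Klf10 were not called.

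**Figure D5:**
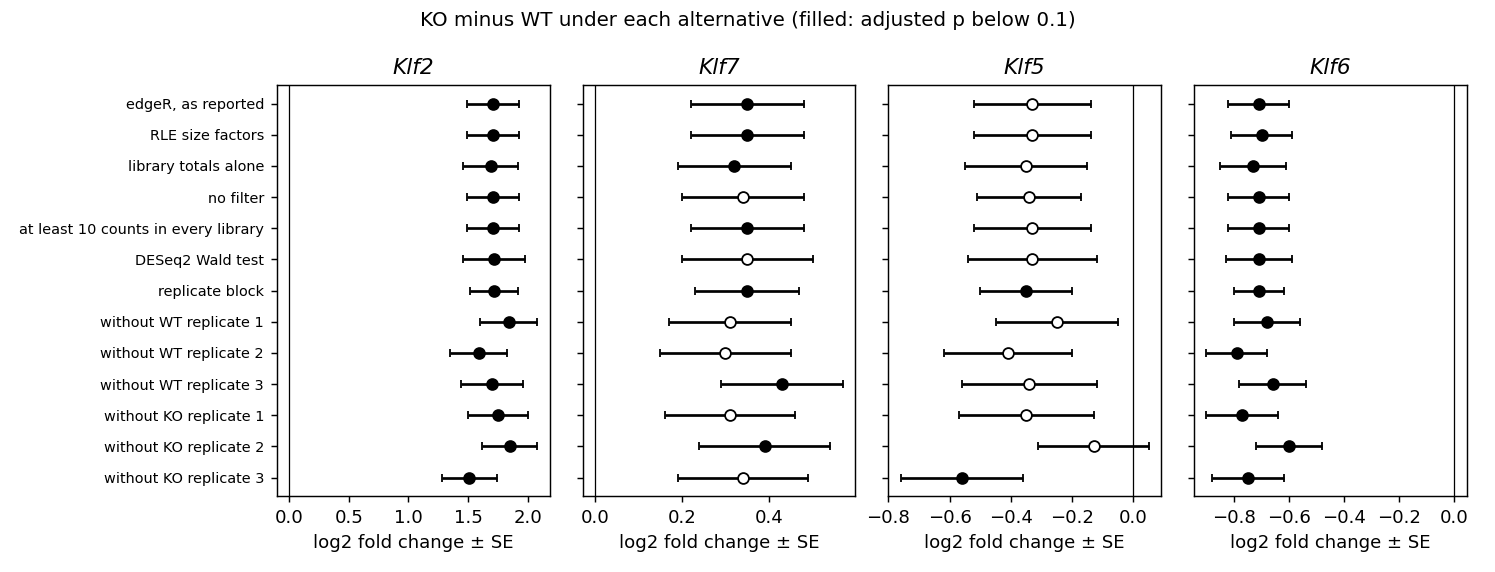
Log2 fold change ± standard error (horizontal axes) of Klf2, Klf7, Klf5 and Klf6 under each way of processing the counts (vertical axis), filled where the adjusted p was below 0.1. Klf2 and Klf6 are filled throughout, at 1.51 to 1.85 and −0.79 to −0.60, Klf7 loses its call under several settings, and Klf5 gains one with the replicate block and without KO replicate 3.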

How the data were processed

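RNA-seq was performed on 3 WT and 3 KO EpiLC libraries made from total RNA with the TruSeq stranded kit. The authors used FastQC, Fastp for trimming and two-pass STAR on GRCm39, and deposited raw counts per gene without normalization. Strand use, annotation release and treatment of reads with several matches are not given in the sources used here. The submitters' processing notes also name DESeq2.

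Identifiers were matched to GENCODE M39 (54749 found, 667 not). Counts were analysed with edgeR 4.0.16 in R 4.3.3 by the quasi-likelihood test (TMM, filterByExpr with a minimum count of 10, genotype as the term, Benjamini-Hochberg adjustment over 15746 genes, call below 0.1). The common dispersion was 0.0137, and TMM factors ran from 0.974 to 1.02. CPM values are relative to TMM-scaled library sizes. The statistics were tested on simulated data. No library repeated another of its group (chi-square per degree of freedom 6.31 to 10.6). Replicate numbers pair the samples: the design text calls the replicates paired, and deviations from the group means correlated at 0.257, 0.298 and 0.122 for equal numbers and at −0.233 to −0.0379 for different numbers (13078 genes, across genes). Because each group was centred on its own mean, the negative values follow largely from the positive ones and are no separate result.

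Alternatives were DESeq2 1.42.0, a replicate block, scaling by RLE size factors or by totals only, the absence of a filter, a filter of 10 counts in each library, a threshold of 0.05, and the omission of each library in turn. The members, lists and tests were chosen with earlier results of these data known. Named were all Klf genes, up to 3 called genes per list and direction with the largest log2 fold changes, genes overlapping a member, Pou3f1 and the 3 profiles nearest to Klf2 (average log2 CPM of at least 1). Sp4, Mef2d, Socs3, Mef2c, Klf14 and the cell type markers, Dusp1 and Btg2 were named after their values were seen. Some genes that meet the rule are counted with their list and not reported here by name.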

Additional observations from a re-analysis of the deposited data

How the results depend on the processing

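Over 13 alternatives for each of the 10 members, 116 of 130 values kept their direction and their side of the threshold, and 5 members had no exception. Klf7 lost its call with no filter (0.34), in DESeq2 (0.35) and at an adjusted p below 0.05 (0.35), and ran from 0.30 to 0.43 with a library left out. Klf5 gained a call with the replicate block (−0.35), and ran from −0.56 to −0.13 with a library left out. The block changed no other member's call. It moved the called genes of the Sp list and of the MEK5-ERK5-MEF2 list from 1 to 2 each, by Sp4 and Mef2d, and those of all lists from 35 to 41. The sign of Klf9 turned without WT replicate 2 (−0.02) and KO replicate 3 (−0.10), which ran up to 0.15, that of Klf10 without WT replicate 3 (0.02, from −0.11), and that of Klf13 without WT replicate 3 (0.01) and KO replicate 1 (0.05, from −0.14). The cause of these changes was not tested. Members called numbered 2 to 3 with a library left out, and list genes called 25 to 35. The genes past both thresholds, 978, numbered 584 with at least 10 counts in every library, a setting that tests fewer genes, and 903 to 1056 with a library left out. The rise of the Klf2 share of the trio, 30.7 percentage points, was 25.5 without division by length, 30.1 with the canonical transcript length and 29.5 to 31.6 with a library left out. The members with the fewest counts in a library were Klf2 (33 to 58 in WT), Klf4 (32 to 78) and Klf12 (50 to 102).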
